A study of Mus musculus with 3 samples.

Results

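Fibroblasts of the mouse prostate were taken from 3 droplet single-cell libraries of whole prostate. Barcodes were selected on their own RNA. A barcode was gated as a fibroblast when it had at least 500 genes, at most 15% mitochondrial unique molecular identifiers (UMIs, 1 per captured transcript), at least 5 UMIs and 0.2% of its UMIs from Dcn, Col1a1, Col1a2, Col3a1 and Pdgfra together, under 0.3% from the muscle genes Myh11, Cnn1, Actg2 and Des, and under 20% from 7 seminal vesicle secretory (Svs) genes. The gate took 1674 of 25288 barcodes that passed the gene and mitochondrial limits, out of 32139 deposited. It held 764 barcodes of the knockout library, 334 of the first heterozygous library and 576 of the second. Because 903 of the 1674 also carried markers of another cell class, nearly all of them epithelial, the values below are led by the 771 barcodes without such markers. These are called fibroblasts here, and numbered 517, 68 and 186 (all triplets run knockout, heterozygous 1, heterozygous 2).

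The series compared 1 Srd5a2-/- library with 2 Srd5a2+/- libraries, all from C57BL6 mice labelled 12 to 15 weeks old. Srd5a2 encodes steroid 5-alpha reductase type 2, which converts testosterone to dihydrotestosterone. All tissues were digested for 2 h at 37 °C with collagenase, a rock inhibitor and added dihydrotestosterone, then treated for 10 min with TrypLE, so transcripts that respond to that hormone were read after the exposure. The controls carry 1 disrupted Srd5a2 allele, no wild-type group was analysed here, and neither the deleted part of the gene nor the number of animals per library is given in the sources used here. Nothing says that libraries came from separate animals. The residual spread behind the p-values comes from the 2 heterozygous libraries, and the single knockout library adds none. The p-values therefore compare these 3 libraries, 1 against 2, and do not measure variation between knockout animals.

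Fibroblasts of the prostate build the collagen, proteoglycan and elastic matrix around the glandular ducts and send Wnt, Fgf, Bmp and insulin-like growth factor signals to the epithelium. In development androgen acts on the gland in large part through this mesenchyme. Adult mouse prostate stroma is commonly split into a fibroblast type that lies around the ducts (Srd5a2, Rorb, Wnt2) and an interstitial type rich in complement C3 and adventitial genes (Pi16, Dpt, Cd248).

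As a set, the 771 barcodes held more RNA of fibroblast genes than the other 903. Dcn, Col1a1 and Pdgfra, given first, are genes that selected both sets. Some of the 771 also held RNA of other classes, given below. In counts per 1000000 UMIs of each class (CPM), Dcn, which encodes the proteoglycan decorin, was at 7301, 5525 and 6433 in the fibroblasts and still at 2932, 3103 and 3223 in the marked barcodes. Col1a1 was at 664, 676 and 579 against 84.8, 22.6 and 22.6, and Pdgfra, the receptor that marks the fibroblast lineage, at 333, 271 and 315 against 50.7, 10.8 and 31.1. Fbln1 (fibulin 1), which the gate did not use, was at 490.1, 147 and 279 against 45.2, 2.95 and 19.4. Penk (proenkephalin), also unused by the gate, was at 943, 1701 and 876 against 84.1, 18.7 and 56.0. The marked barcodes were rich in keratins instead. Krt14, a keratin of basal cells, was at 1169, 1558 and 1294 in them against 7.31, 36.8 and 23.0 in the fibroblasts, and Trp63, a transcription factor of basal cells, at 112, 68.7 and 64.6 against 7.31, 36.8 and 12.8. Of the marked barcodes 238, 265 and 387 held at least 3 UMIs and 0.2% of UMIs of the epithelial list (endothelial, immune and glial lists gave at most 5 a library). The comparisons were designed on the whole gate, and the barcodes without such markers were moved to the front after these levels had been seen. Because the left-out lists, Krt14 among their genes, define the fibroblasts, their low levels in them are no finding. Nor are their high levels in the marked barcodes.

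**Figure D1:**
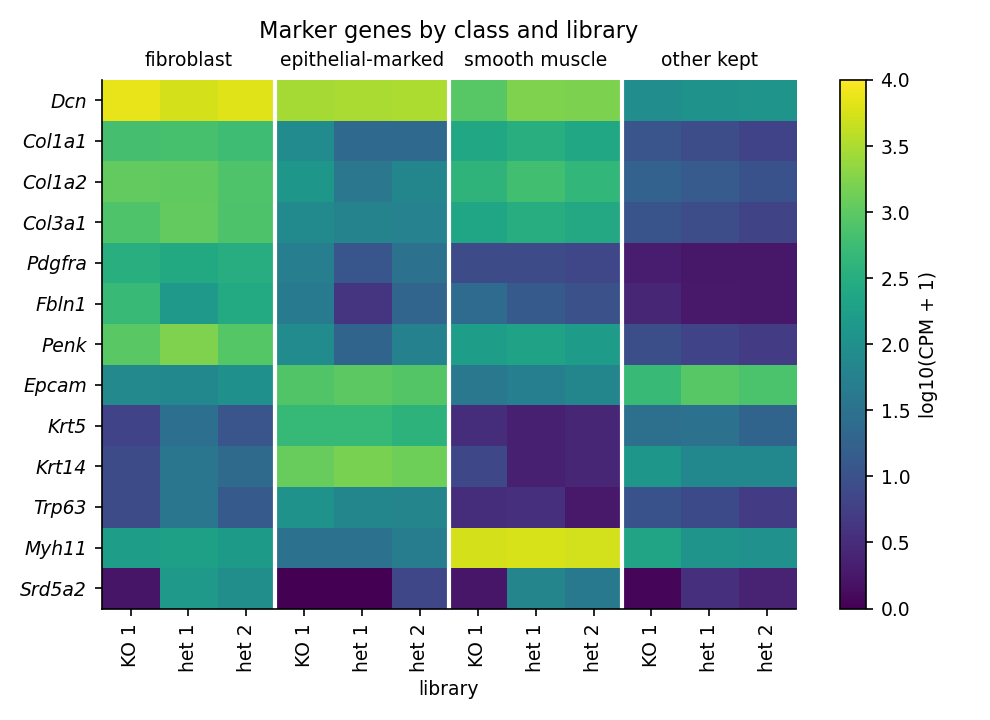
Colour gives log10(CPM + 1) of each gene (rows) in each library (columns) for the 771 fibroblasts, the 903 gated barcodes with markers of another class, smooth muscle and the other kept barcodes. Dcn is high in both gated sets, while Col1a1, Pdgfra, Fbln1 and Penk are high in the fibroblasts and Krt5, Krt14 and Trp63 in the marked set.

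Markers of further classes were not even across libraries in the fibroblasts. The 7 immune markers summed to 164, 32.2 and 35.9 CPM, with all 7 present in the knockout and 6 of 7 (Ptprc, Tyrobp, C1qa, C1qb, Adgre1 and Cd3e) at 0 in both heterozygous libraries. Immunoglobulin RNA ran the other way, with 0, 0 and 419 UMIs of Jchain, 1, 0 and 1487 of Ighm and 1, 0 and 464 of Igha, held by 10 barcodes or fewer of heterozygous 2. Cd52, the leading member of that list and also abundant outside the fibroblasts, made up most of the sum and passed the genotype test (221, 7 and 14 UMIs, log2 fold change 2.22 ± 0.41, adjusted p = 1.37e-05). The 5 pericyte markers, which were not used to set barcodes apart, summed to 61.8, 285 and 64.0 CPM, highest in heterozygous 1. There the sum was near the 292 CPM of smooth muscle, against 18.1 in the other kept barcodes. The 6 smooth muscle markers summed to 2895, 3534 and 3206 CPM in the fibroblasts, against 56314, 52356 and 55176 in smooth muscle. Endothelial markers summed to 54.5, 46.0 and 51.2 CPM, glial markers to at most 3.32, and all adipocyte and mesothelial markers were at 0. Epithelial markers summed to 636, 501 and 912 CPM. The 7 Svs genes, made by the seminal vesicle, took 5.24%, 0.489% and 1.01% of the fibroblasts' UMIs, highest in the knockout. Fibroblasts held 1503858, 217574 and 390501 UMIs in all, with medians of 2819, 3021 and 1975.5 per barcode, and heterozygous 1 contains no barcode under 2466 UMIs. The libraries shared 15, 57 and 16 barcode sequences pairwise.

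At the edge of the gate the fibroblasts were few. Of the 771, 34, 9 and 21 lay under 0.3% of UMIs from the matrix genes, with medians of 0.879%, 0.658% and 0.817%. Of the marked barcodes, 145, 144 and 196 lay under 0.3%. Outside the gate, 491, 259 and 600 kept barcodes lay between 0.1% and 0.2%.

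Fibroblasts took a larger share of kept barcodes in the knockout library. They made up 5.18% (95% exact binomial interval 4.75 to 5.63) of the knockout, 1.44% (1.12 to 1.82) of heterozygous 1 and 1.76% (1.52 to 2.03) of heterozygous 2, a ratio of 3.24 between the knockout and the mean of the heterozygotes. The intervals, which cover counting error only, do not overlap between the genotypes. Among barcodes of at least 2466 UMIs the shares were 4.41%, 1.44% and 0.589%, a ratio of 4.34. Smooth muscle barcodes moved the same way, at 6.47%, 3.50% and 2.19%. The gate as a whole gave 7.65%, 7.08% and 5.44%, a ratio of 1.22, and the marked barcodes went the other way at 2.47%, 5.64% and 3.68%. More fibroblasts and fewer recovered cells of other types cannot be told apart. With 1 knockout library no test across libraries was made of these shares.

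**Figure D2:**
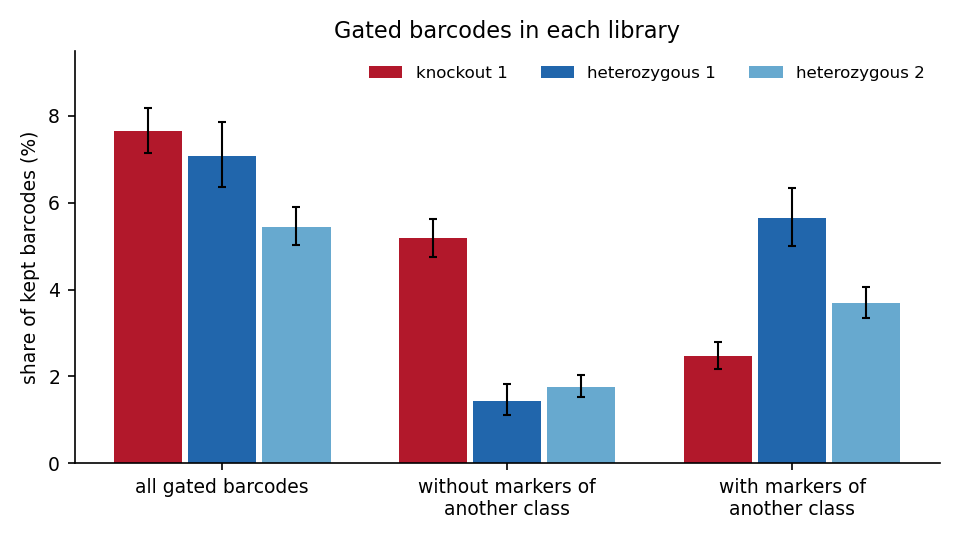
Bars give the share of kept barcodes (%) in each library for the whole gate, for the barcodes without markers of another class (fibroblasts) and for those with them, with exact 95% binomial intervals. The fibroblast share is 5.18% in the knockout and 1.44% and 1.76% in the heterozygotes, and the marked share has the opposite order.

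Beside smooth muscle, the other mesenchymal class of the prostate wall, the fibroblasts differed in matrix, enzyme and signalling genes named below. Of 7629 genes with at least 100 UMIs, 272 (3.57%) were at least 2-fold higher in fibroblasts than in smooth muscle in every library and 472 (6.19%) at least 2-fold lower. Over the whole gate these were 377 (4.1%) and 608 (6.62%) of 9188. These are descriptions, since the gate separates both classes by expression. Levels in this comparison are CPM scaled over both classes. Dpt (dermatopontin, a matrix protein) was at 289.7, 138 and 113 in fibroblasts and 0, 0 and 0.945 in smooth muscle, a log2 ratio from 5.47 to 7.48. Lamc3, a laminin chain, was at 137, 118 and 152 against 2.64, 0 and 0.945. Pi16, a marker of adventitial fibroblasts, was at 72.3, 98.5 and 103 against 0.588, 0 and 0.945. Dpt, Lamc3 and Pi16 were thus near 0 in smooth muscle in every library.

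The 12 genes with the most even excess also held enzymes and signals. Hsd11b1, which regenerates active glucocorticoid, was at 146, 86.7 and 171 in fibroblasts against 2.06, 2.60 and 2.83 in smooth muscle. Inmt, an indolethylamine methyltransferase, was at 293, 256 and 316 against 6.47, 3.91 and 3.78. Wnt2, a Wnt ligand, was at 239, 225 and 218 against 9.40, 10.4 and 11.3. Ccl11, the eotaxin chemokine, was at 42.9, 110.3 and 108 against 1.18, 0 and 3.78. All of its UMIs in heterozygous fibroblasts lay in 10 barcodes or fewer. Cd34, Cygb, Cpxm1, Dnm1 and Smim41 completed the 12. On the muscle side the 12 included Acta1, skeletal alpha actin, at 1732, 1345 and 1278 in smooth muscle against 11.6, 3.94 and 12.2 in fibroblasts, Pln (phospholamban), at 44.1, 104 and 81.3 against 0, 0 and 0, and P2rx1, an ATP-gated channel, at 37.3, 139 and 79.4 against 0, 0 and 0.

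By group, 7 of 14 proteoglycans were at least 2-fold higher in fibroblasts in every library (Dcn, Lum, Bgn, Podn, Vcan, Has1 and Gpc6) and none lower. Of 16 elastic fibre genes 6 were higher (Fbln1, Fbln2, Efemp1, Mfap2, Mfap5 and Ltbp4) and 2 lower. Among 9 complement genes 5 were higher (C1ra, C3, Cd55 and C7 among them). Of 12 collagens 3 were higher (Col3a1, Col5a2 and Col5a3), and of 18 collagen processing genes 1 was (P3h3), with 0 lower in either list. Over all 7629 genes the shares were 3.57% higher and 6.19% lower. Of 13 contractile and myofibroblast genes 10 were lower in fibroblasts (among them Acta2, Tagln, Myl9 and Fn1) and 0 higher. Of 28 immediate early genes 0 differed in either direction. Dcn and Col3a1 were among the genes the gate used.

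Within the fibroblasts 2 ranges were described with lists of 12 interstitial, C3-type genes and 10 ductal-type genes, after thinning each barcode to 1000 UMIs. Barcodes leaning to the ductal-type list made up 55.1%, 60.3% and 55.4% of 510, 68 and 177 thinned barcodes, and those leaning to the C3-type list 26.5%, 20.6% and 26.6%. Without thinning the C3-type shares were 28.8%, 30.9% and 29.6%. The exact 95% intervals of the C3-type share (22.7 to 30.5, 11.7 to 32.1 and 20.2 to 33.7) overlap across all 3 libraries. Ties and barcodes with neither list were 32, 4 and 10, and 62, 9 and 22. These are ranges of a score and not cell types.

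Gene levels of the ranges are over unthinned barcodes. Outside both lists, 18 of 4744 genes (0.379%) were at least 2-fold higher in the C3-type range in every library and 45 (0.949%) at least 2-fold lower. Lsp1, an actin-binding protein of leukocytes and some fibroblasts, was at 573, 150.2 and 128 CPM in the C3-type range and 231, 50 and 51.1 in the ductal-type range. Mfap4, a microfibril glycoprotein, was at 651, 313 and 494 against 74.6, 114 and 102, and Inmt at 602, 563 and 655 against 226, 136 and 179. Cd74, the invariant chain of class II antigen presentation, was at 265, 12.5 and 136 against 8.42, 0 and 0, from 92, 1 and 16 UMIs in the C3-type range, so heterozygous 1 rests on 1 UMI. Over all fibroblasts 10 barcodes held 89.2% of its knockout UMIs, and the summed immune markers were highest in that library. In the other direction Lef1, a transcription factor of Wnt signalling, was at 14.4, 12.5 and 34.0 against 108, 179 and 136, and Chrm3, a muscarinic receptor, at 31.7, 0 and 34.0 against 124, 121 and 136. Evx2, a homeobox transcription factor, was at 14.4, 0 and 0 against 77.0, 14.3 and 29.8. The ranges of heterozygous 1 hold 21 and 39 barcodes, which limits these levels. Srd5a2 in the heterozygous libraries was at 62.6 and 42.5 CPM in the C3-type range and at 171 and 132 in the ductal-type range, and at 0 in both ranges of the knockout.

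Srd5a2 itself, the targeted gene (chr17:74016955-74047916 in GRCm38, minus strand), matched the labels. Fibroblasts held 1, 31 and 36 Srd5a2 UMIs, which is 0.665, 142 and 92.2 CPM. The heterozygous level was 166-fold the knockout level (95% interval 28.7 to 6641, counting error only), with a log2 fold change of -6.94 ± 0.72 (SE, adjusted p = 2.5e-19). It passed in each alternative fit except limma-voom. In smooth muscle it was at 0.770, 64.4 and 40.8 CPM, in the marked barcodes at 0, 0 and 6.22 and in the other kept barcodes at 0.124, 2.50 and 1.42. Among the classes compared, heterozygous Srd5a2 was highest in the fibroblasts in both libraries, with smooth muscle next. The RefSeq sequence of the 250 bases before its start site is shown because it is the promoter region of the disrupted gene (chr17:74047861-74048110, GRCm38.p6, minus strand).
Srd5a2: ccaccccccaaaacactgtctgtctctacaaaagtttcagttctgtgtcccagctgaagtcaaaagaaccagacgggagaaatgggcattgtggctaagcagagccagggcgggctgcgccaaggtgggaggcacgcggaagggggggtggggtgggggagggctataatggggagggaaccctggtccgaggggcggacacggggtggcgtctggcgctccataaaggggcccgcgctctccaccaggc
No motif is marked in it. The window ends at the RefSeq start, and the GENCODE interval given above begins inside it.

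Between genotypes, 100 of 6865 genes tested in the fibroblasts (1.46%) passed an adjusted p of 0.05 in edgeR's quasi-likelihood test, 41 higher in the knockout (0.597%) and 59 lower (0.859%). A DESeq2 test on the same sums called 19. Barcodes of at least 2466 UMIs gave 63 calls. Subtracting foreign RNA gave 94, of which 27 were higher and 67 lower. Foreign RNA was the summed profile of kept barcodes gated neither as fibroblasts nor as smooth muscle. It was scaled so that all Svs UMIs counted as foreign, and is not a measured level of free RNA. The median log2 fold change of all genes was -0.02. Of the 41 higher genes 21 were at least as abundant in fibroblasts as in the other kept barcodes, and 28 of the 59 lower. The others were more abundant outside the fibroblasts. Higher among them were the 7 Svs genes that the gate limits, with Sva and Ceacam10, which the seminal vesicle also secretes, and lower among them Sbp, Msmb and Spink1, secretions of prostate epithelium. The Svs share of the same barcodes was 5.24%, 0.489% and 1.01%, and its part in the calls was not tested. For 8 of the higher and 31 of the lower genes, 10 barcodes held at least 50% of the UMIs of the group where the gene was high. For 62.3% of all genes tested the knockout lay outside both heterozygous libraries, so that alone is common. The whole gate gave 709 of 10705 genes (6.62%), 460 higher (4.3%) and 249 lower (2.33%). Of the 460, 11 were genes that the gate used. The whole gate gave 79 with DESeq2 and 21 after foreign RNA was subtracted, and the knockout lay outside both others for 71.3%. Those sums mix fibroblasts with marked barcodes, which were 32.3%, 79.6% and 67.7% of the gate. The marked barcodes alone gave 140 of 9523 (1.47%), 72 higher (0.756%) and 68 lower (0.714%), with the knockout outside both others for 68.1%. Of the 709 genes called in the whole gate 76 (10.7%) were also among the 100, all in the same direction.

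**Figure D3:**
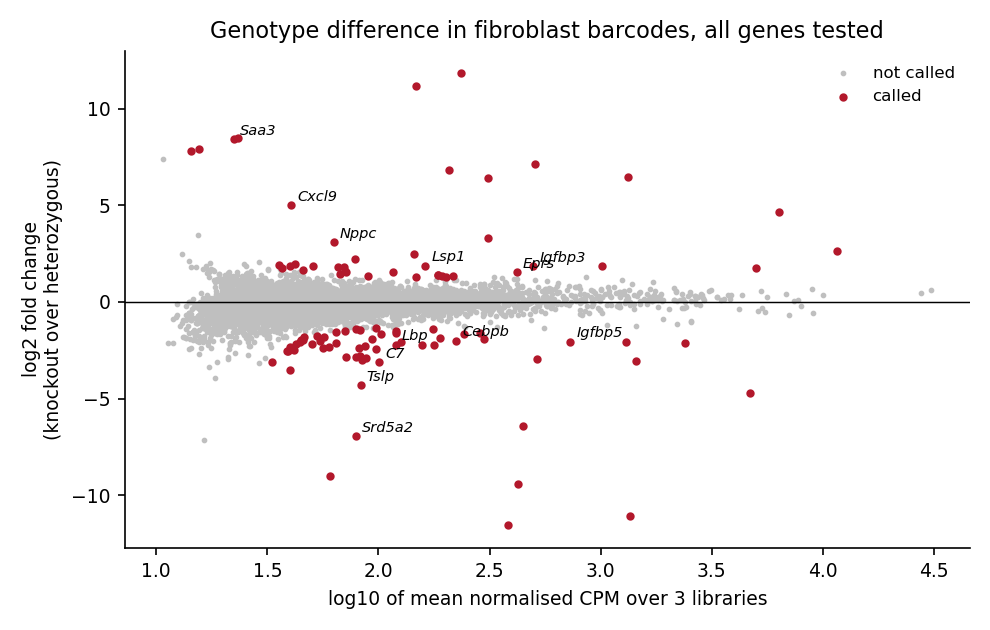
Each point is 1 of 6865 genes tested in the fibroblasts, with the log10 of its mean CPM over the 3 libraries against its log2 fold change (knockout over heterozygous), and the 100 called genes in red. Srd5a2 (log2 fold change -6.94) lies far below 0, and larger differences include Sva and Svs3b of the seminal vesicle (above 0) and the immunoglobulin genes Ighm and Jchain (below 0).

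Levels between genotypes are given as CPM scaled for composition (TMM). Counts of called list members stand beside 1.46% called over all genes tested, a share at which short lists would hold few calls or none. The insulin-like growth factor axis, in which binding proteins hold the growth factor in the matrix and control its access to receptors, had 1 higher and 2 lower members of 11 tested, with a median log2 fold change of -0.60. Igfbp5 (chr1:72857932-72874884), a binding protein that lodges in matrix, was at 234, 1093 and 863. The knockout lay below both heterozygous libraries, and the gene fell (log2 fold change -2.06 ± 0.50, adjusted p = 0.00418). Igfbp3 (chr11:7206086-7213923), the main carrier of the growth factor in blood, was at 976, 89.2 and 430.2. It rose by 1.87 ± 0.42 (adjusted p = 0.00107), with the knockout above both, although the heterozygous libraries themselves lay far apart (3.41 against heterozygous 1 and 1.18 against heterozygous 2). Igfbp2 was called lower (log2 fold change -1.50, adjusted p = 0.00904) but was at 57.1, 49.1 and 255, with the knockout between the heterozygous libraries. Heterozygous 2 decided that call, since the difference from heterozygous 1 alone was 0.21. The others did not pass. Igfbp6 was at 1601, 999 and 858 (0.79 ± 0.46), Igfbp7 at 767, 1449 and 2129 (-1.22 ± 0.51) and Igfbp4 at 419, 566 and 701 (-0.60 ± 0.45).

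Of 12 steroid enzymes and receptors tested, Srd5a2 was the 1 called. Nr3c1, the glucocorticoid receptor, was at 103, 107 and 98.6, and Hsd11b1 at 161, 98.1 and 192, with the genotypes overlapping for both. None of 10 steroid-responsive genes was called, and their median was -0.26. Tsc22d3, a target of the glucocorticoid receptor, was at 195, 214 and 227, Klf9 at 496, 513 and 433, Errfi1 at 1049.8, 660.0 and 584 and Igf1 at 257, 566 and 279.

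Of the 6 matrix lists 1 held a called gene. Fibrillar collagens had 0 of 13 called and a median of 0.23, collagen processing 1 of 18 (0.18), basement membrane 0 of 15 (0.26), proteoglycans 0 of 15 (0.17), elastic fibre 0 of 15 (0.22), and proteases with their inhibitors 0 of 19 (0.32). These medians lie above that of all genes (-0.02). The elastic fibre list gained 1 higher call with Svs genes left out, with at least 1000 genes, with at most 10% mitochondrial UMIs, at the depth limit of 2466 UMIs and in limma-voom. The protease list gained 2 higher calls with at least 1000 genes, at the depth limit and in limma-voom, where the collagens gained 1. Dcn, Col1a1 and Col3a1 are among the genes that selected the barcodes, so their levels are bounded by the gate and are no test of a lack of change. Col1a1, the main fibrillar collagen chain, was at 750.2, 656 and 619, a log2 fold change of 0.24 ± 0.44. Col3a1 was at 884, 1057 and 830.2 and Bgn (biglycan) at 1350.1, 1044 and 1523, with overlapping genotypes. Fbln1 came near the threshold at 553, 143 and 299 (1.30 ± 0.39, adjusted p = 0.0523), as did Dpt at 319, 156 and 126 (1.19 ± 0.37, adjusted p = 0.0735). In the whole gate Fbln1 (2.37, adjusted p = 2.1e-13) and Dpt (2.41, adjusted p = 6.33e-14) were called higher. Col1a1 had a log2 fold change of 1.46 there, but the gate used this gene, so no test is read from it. In the whole gate 32.3%, 79.6% and 67.7% of the barcodes carried markers of another class. The 1 called was P3h3, a collagen prolyl hydroxylase, which fell (39.0, 84.7 and 123, log2 fold change -1.44 ± 0.41, adjusted p = 0.034).

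**Figure D4:**
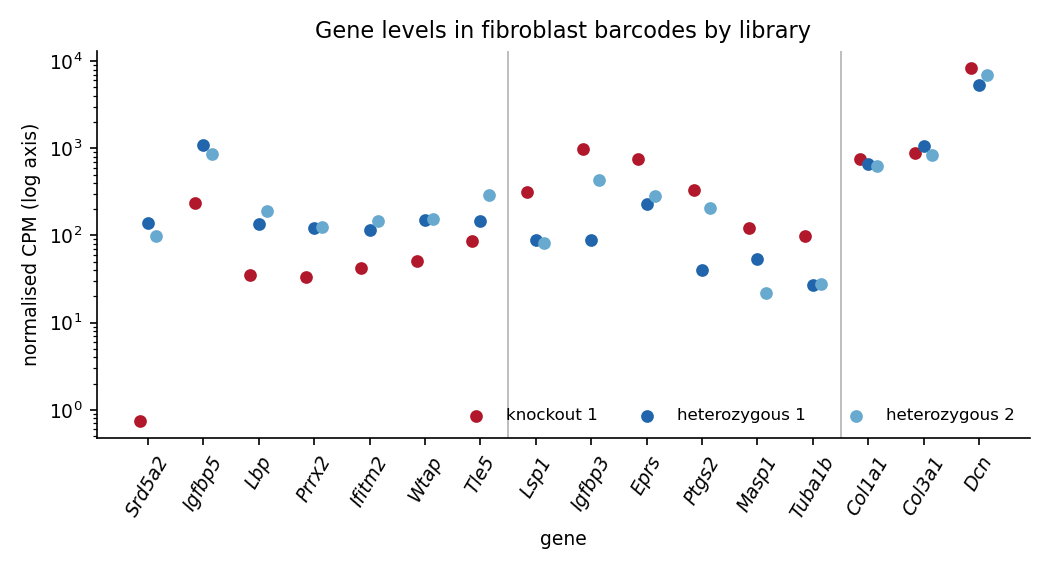
Points give TMM-scaled CPM (log axis) of 16 genes in the fibroblasts of each library, with called lower genes on the left, called higher genes in the middle and genes that did not pass on the right. For Srd5a2, Igfbp5 and Lbp the knockout lies below both heterozygous libraries, for Lsp1 and Eprs above both, and Col1a1, Col3a1 and Dcn, which the gate used, lie closer together.

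Signalling lists held few calls, as lists of this length would at the share over all genes tested, 1.46%. None of 18 Wnt genes (median 0.07), 19 Bmp and Tgf-beta genes (0.16) or 6 Hedgehog response genes (-0.17) was called, and Wnt2 was at 264, 254 and 244. Rspo3, which strengthens Wnt signals, was at 188, 339 and 422 (-1.02 ± 0.41, adjusted p = 0.36), with the knockout below both. Of 20 growth factor ligands 1 was called, Angpt1, a ligand of the endothelial receptor Tek. It was at 24.8, 93.7 and 173 and fell (log2 fold change -2.46 ± 0.43, adjusted p = 2.3e-06), though 10 barcodes held 66.7% of its heterozygous UMIs. Among 23 transcription factors tested Osr1, a factor of mesenchymal progenitors, was the 1 called, at 15.0, 125 and 98.6 (-2.86 ± 0.46, adjusted p = 1.49e-07). In its heterozygous libraries 10 barcodes held 71.9% of the UMIs. Prrx2, a homeobox factor of mesenchyme that was on no list, was at 33.0, 120.4 and 126 and fell (log2 fold change -1.90 ± 0.42, adjusted p = 0.000838), spread over more barcodes (34.2% in 10).

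Chemokines and cytokines moved in both directions, with 4 higher and 3 lower of 21 tested and a median of -0.03. Most of these calls rested on few barcodes. Cxcl9 (chr5:92321347-92328079), a T cell attractant induced by interferon gamma, had 152, 1 and 1 UMIs, and the knockout level was 30.7-fold the heterozygous level (95% interval 8.36 to 256, counting error only), with a log2 fold change of 4.99 ± 0.65 (adjusted p = 1e-11) and 98.7% of its knockout UMIs in 10 barcodes. Saa3, an acute phase protein, had 89, 0 and 0 UMIs, so it was at least 12.0-fold higher in the knockout against a floor of 3 UMIs over the heterozygous group. All of its UMIs lay in 10 barcodes or fewer. Cxcl9 and Saa3, both counted among the 4 higher calls, passed the filter on low counts through the knockout library alone. Their calls therefore rest on a few barcodes of 1 library. Cxcl1 and Cxcl2, neutrophil attractants, were at 237, 161 and 43.8 and at 66.1, 35.7 and 5.48 (adjusted p = 0.0271 and 0.0422). Tslp, an alarmin cytokine, had 8, 22 and 53 UMIs and fell (log2 fold change -4.33 ± 0.52, adjusted p = 9.75e-14), with all of the heterozygous UMIs in 10 barcodes or fewer. Ccl11 was at 47.3, 125 and 121 (-1.37 ± 0.40, adjusted p = 0.0438), again from 10 barcodes or fewer. Ccl5, a T cell chemokine called lower, had 17, 35 and 0 UMIs. Heterozygous 1 decided its call, and the difference from heterozygous 2 alone was 2.35. The summed immune markers were at 164, 32.2 and 35.9 CPM in the same barcodes, while Jchain, Ighm and Igha lay in heterozygous 2, and the part of either in these calls was not tested.

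Interferon-stimulated genes gave 2 higher and 1 lower call of 16 tested, with a median of 0.19. Gbp2, a guanylate-binding GTPase, was at 127, 44.6 and 41.1 (log2 fold change 1.57 ± 0.41, adjusted p = 0.0115), and Iigp1, another interferon-induced GTPase, at 147, 75.8 and 46.6 (1.32 ± 0.39, adjusted p = 0.0475). In 10 barcodes lay 68.6% and 53.6% of their knockout UMIs. Ifitm2, a membrane protein that restricts viral entry, fell, at 42.8, 116 and 148 (-1.64 ± 0.40, adjusted p = 0.00498), while its neighbours in the family did not pass (Ifitm1 at 1539, 1061 and 1069, Ifitm3 at 1969, 1632 and 2096). Outside the list, Ifi203 was at 113, 58.0 and 30.1 and Ifi30, a lysosomal thiol reductase, at 128, 35.7 and 49.3. Both rose (1.43 ± 0.41 and 1.55 ± 0.41).

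The upstream sequences of Cxcl9, Cxcl10 and Gbp2 are shown because these 3 interferon-responsive genes were called in the comparison of fibroblasts with smooth muscle below. Each run is the 250 bases before the RefSeq start site in GRCm38.p6, 5′ to 3′ on the gene's strand, at chr5:92328080-92328329 (minus), chr5:92348890-92349139 (minus) and chr3:142620413-142620662 (plus). Capitals mark matches on either strand to the letters of the interferon-stimulated response element, GAAA and GAAA with any 2 bases between them.
Cxcl9: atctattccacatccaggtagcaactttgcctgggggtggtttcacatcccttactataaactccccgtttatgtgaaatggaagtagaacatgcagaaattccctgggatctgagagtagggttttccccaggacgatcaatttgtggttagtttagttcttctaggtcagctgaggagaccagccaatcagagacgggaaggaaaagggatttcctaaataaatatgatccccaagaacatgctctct
Cxcl10: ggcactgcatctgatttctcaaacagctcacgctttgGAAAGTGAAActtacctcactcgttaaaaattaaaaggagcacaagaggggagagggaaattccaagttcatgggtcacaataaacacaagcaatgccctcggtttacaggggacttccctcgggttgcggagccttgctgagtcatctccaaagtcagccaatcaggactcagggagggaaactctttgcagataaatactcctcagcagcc
Gbp2: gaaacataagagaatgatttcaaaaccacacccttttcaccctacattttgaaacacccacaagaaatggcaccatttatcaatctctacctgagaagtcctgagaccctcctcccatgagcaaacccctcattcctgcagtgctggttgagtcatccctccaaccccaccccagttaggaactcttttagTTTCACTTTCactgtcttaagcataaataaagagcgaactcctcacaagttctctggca
Cxcl10 and Gbp2 held 1 match each, and Cxcl9 held 0 in this window. The GENCODE interval of Gbp2 begins at chr3:142620602, inside its window, and the Gbp2 match lies within that interval. Such letters occur in 2.98% of 32851 promoters of this length and in 10 of the 19 interferon-stimulated list genes with a promoter in the table. A match is a description and not a bound site.

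Complement and innate genes gave 1 higher and 1 lower call of 9. Masp1, a protease of the lectin pathway, was at 122, 53.5 and 21.9 and rose by 1.80 ± 0.42 (adjusted p = 0.00282). C7, a component of the membrane attack complex, was at 15.8, 183 and 104 and fell (log2 fold change -3.13 ± 0.46, adjusted p = 3.2e-09), with 83.5% of the heterozygous UMIs in 10 barcodes. Lbp (chr2:158306493-158332852), the lipopolysaccharide-binding protein, was on no list. It was at 35.3, 134 and 189, with the knockout below both, and fell (log2 fold change -2.21 ± 0.41, adjusted p = 1.15e-05). Serping1, the C1 inhibitor, was at 1517, 887 and 1222 and did not pass.

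Immediate early genes, which respond within minutes to stimuli and also to tissue digestion, had 23 of 28 log2 fold changes above 0 and a median of 0.33, with 0 called higher. Fos was at 2222, 1463 and 1573, Junb at 4025, 2417 and 2924 and Egr1 at 1737, 1244 and 1058. Cebpb was called lower (-2.00 ± 0.41, adjusted p = 0.000156) but was at 76.6, 66.9 and 526, so heterozygous 2 alone decided the call (its difference from heterozygous 1 was 0.19). Heat shock proteins had 0 of 16 called and a median of 0.16.

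Prostaglandin genes gave 1 call of 8. Ptgs2, the inducible cyclooxygenase, was at 335, 40.1 and 206 and rose by 1.36 ± 0.37 (adjusted p = 0.0188), with the knockout 2.97 above heterozygous 1 and 0.70 above heterozygous 2. Nppc, the C-type natriuretic peptide, was the 1 of 5 signalling peptides called. Its UMIs were 209, 1 and 10, the log2 fold change was 3.09 ± 0.46 (adjusted p = 6.13e-09), and 10 barcodes held 62.7% of the knockout UMIs. Penk, from the same list, was at 1065, 1650.1 and 937 with overlapping genotypes. Ccn2, a matricellular protein induced by tension and Tgf-beta, was the 1 of 12 contractile and myofibroblast genes called. It was at 206, 75.8 and 65.8 and rose by 1.55 ± 0.37 (adjusted p = 0.0033), with 55.8% of its knockout UMIs in 10 barcodes. The call was lost with the stricter matrix gate, the stricter muscle gate and DESeq2, at values down to 0.85. Acta2 and Tagln, both contractile, were at 1059, 1325 and 1156 and 1724, 1574 and 1806.

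The lists for retinoid handling (0 of 10, median -0.34), lipid handling (0 of 16, -0.03), oxidative defence (0 of 20, -0.20) and the cell cycle (0 of 6, 0.47) held no called gene. Apoe, the lipid carrier, was at 1477, 2422 and 3724 (-1.06 ± 0.52, adjusted p = 0.652) and Apod at 1433, 366 and 784 (1.31 ± 0.44, adjusted p = 0.143). Aldh1a1, which makes retinoic acid, was at 237, 384 and 392. The knockout was outside both heterozygous libraries for all 3 without passing the test. That position alone is common, at 62.3% of all genes tested, 10 of 16 lipid handling genes and 6 of 10 retinoid handling genes.

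Further called genes stood on no list. Lsp1 (chr7:142460809-142494867) was at 314, 89.2 and 82.2, and rose by 1.88 ± 0.37 (adjusted p = 7.89e-05), the heterozygous libraries lying close together. Eprs, a tRNA synthetase, was at 744, 227 and 285 (1.53 ± 0.40, adjusted p = 0.0137), and Tuba1b, an alpha tubulin, at 97.6, 26.8 and 27.4 (1.84 ± 0.44, adjusted p = 0.00418). Sorcs2, a sorting receptor, was at 82.6, 35.7 and 19.2, and the unnamed locus Gm20400 at 80.3, 35.7 and 11.0. Both rose. In the other direction Wtap, a subunit of the RNA adenosine methylation complex, was at 50.3, 152 and 156 (-1.61 ± 0.39, adjusted p = 0.00424). Tle5, a Groucho family corepressor, was at 86.4, 147 and 293 (-1.38 ± 0.38, adjusted p = 0.0265), and Smarcd3, a chromatin remodelling subunit, at 19.5, 84.7 and 54.8 (-1.78 ± 0.50, adjusted p = 0.0272). The uncharacterised 2810001G20Rik was at 9.76, 71.4 and 43.8, and fell as well.

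Most of these calls depended on the test and the depth. Lists without a call gained 1 in some settings, as lipid handling did with at least 1000 genes, at the depth limit and in limma-voom, retinoid handling at the depth limit, Hedgehog response with the stricter matrix gate, and Wnt and cell cycle genes in limma-voom. Of the genes named, Srd5a2, Igfbp5, C7 and Tslp also passed DESeq2, which gave no adjusted p for some sparse genes. Among barcodes of at least 2466 UMIs the calls of Prrx2, Ifitm2, Wtap, Tle5, P3h3, Smarcd3, Masp1, Tuba1b, Ptgs2, Gbp2, Iigp1, Ifi203, Ifi30, Cxcl1, Cxcl2, Ccl11, Tslp, Sorcs2, Gm20400 and 2810001G20Rik were lost, with the direction kept. Those of Igfbp5, Igfbp3, Lsp1, Eprs, Lbp, Angpt1, Osr1 and C7 held there. Against heterozygous 1 and then heterozygous 2 alone, log2 fold changes were 0.55 and 2.35 for Cxcl1, 0.83 and 3.01 for Cxcl2, 4.40 and 2.39 for Nppc. They were also unequal, at 1.14 and 2.32 for Masp1, -0.75 and -1.73 for Tle5, 1.11 and 2.57 for Gm20400. For Angpt1 they were -1.79 and -2.65.

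Whether the genotype difference differed between fibroblasts and smooth muscle was tested in one model over 6 sums with the library as a block. It differed for 88 of 10184 genes (0.864%), 63 with a higher difference in fibroblasts (0.619%) and 25 with a lower one (0.245%). The larger change was in the fibroblasts for 35 of the 63 and 15 of the 25. Over the whole gate the same model called 9 of 11303 genes (0.0796%), all higher. Srd5a2 was not called (-1.26 ± 1.55, adjusted p = 0.986), with log2 fold changes of -5.51 in fibroblasts and -4.48 in smooth muscle. Igfbp5 was at 213, 965 and 772 in fibroblasts and 151, 185 and 162 in smooth muscle, so its log2 fold change was -2.01 in the first and -0.19 in the second, a difference of -1.83 ± 0.31 (adjusted p = 4.59e-06). Igfbp3 was at 886, 78.8 and 385 against 8.23, 24.7 and 4.72, a difference of 2.64 ± 0.50 (adjusted p = 4.7e-05). Ptgs2 was at 304, 35.5 and 184 against 154, 268 and 166 (1.82 ± 0.33, adjusted p = 1.72e-05).

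For 3 interferon-responsive genes the log2 CPM difference in smooth muscle, knockout less the mean of the heterozygotes, had the other sign. Cxcl10, a chemokine related to Cxcl9, was at 479, 248 and 272 in fibroblasts and 226, 1089 and 407 in smooth muscle, a difference of 2.40 ± 0.32 (adjusted p = 3.58e-10). Within the fibroblasts alone its log2 fold change of 0.85 ± 0.39 did not pass (adjusted p = 0.568). Gbp2 was at 115, 39.4 and 36.7 against 72.0, 152 and 169 (2.77 ± 0.40, adjusted p = 1.16e-08). Smooth muscle of both heterozygous libraries lay above that of the knockout for Cxcl10 and Gbp2. Cxcl9 was at 104, 3.94 and 2.45 in fibroblasts and 1.47, 31.3 and 0.945 in smooth muscle (8.04 ± 0.94, adjusted p = 1.81e-13), where the knockout lay between the heterozygous libraries. In knockout fibroblasts 10 barcodes held 53.4%, 68.6% and 98.7% of the UMIs of Cxcl10, Gbp2 and Cxcl9.

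**Figure D5:**
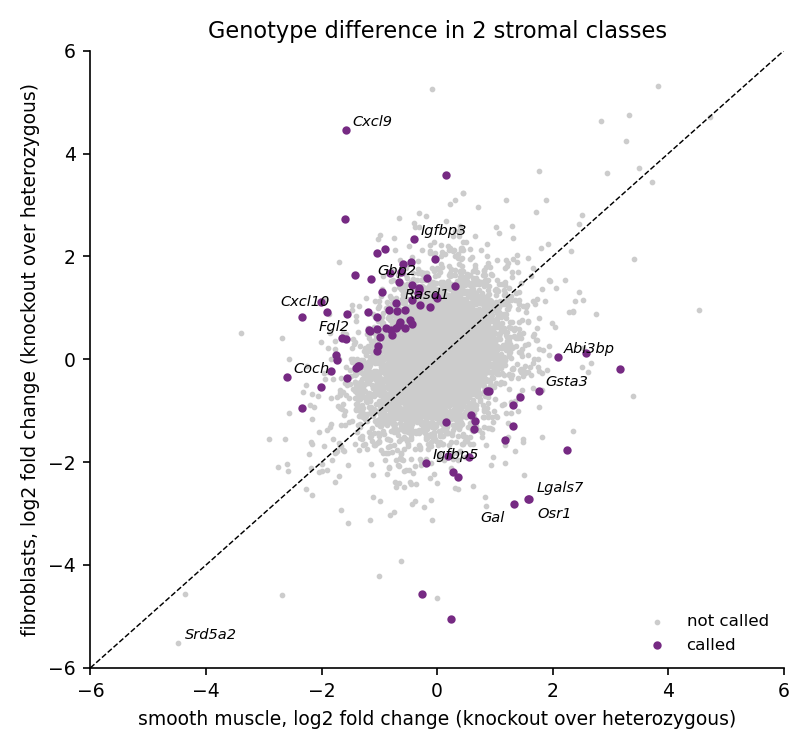
Each point is a gene with its log2 fold change (knockout over heterozygous) in smooth muscle on the x axis and in fibroblasts on the y axis, the 88 called genes in purple and the dashed line marking equal change (6 genes lie outside the axes). Igfbp5 lies low in fibroblasts and near 0 in smooth muscle, and Srd5a2 lies low in both.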

How the data were processed

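The authors deposited unnormalized UMI counts for 3 libraries. The submitters' processing notes name Cell Ranger 3.1.0 and the mm10 genome. How barcodes were called as cells is not given in the sources used here. Library totals were 129015041, 47601747 and 100801564 UMIs. Barcodes were gated as stated, no doublet caller was run, and barcodes with at least 3 UMIs and 0.2% of UMIs of an epithelial, endothelial, immune or glial list were set apart. Smooth muscle needed at least 5 UMIs and 0.3% of UMIs from the 4 muscle genes. UMIs were summed per library and tested with edgeR 4.0.16 (filterByExpr, TMM, quasi-likelihood, 1 residual degree of freedom), with Benjamini-Hochberg adjustment across the whole fit and a threshold of 0.05. Alternatives used DESeq2 1.42.0 and limma 3.58.1, a stricter matrix gate (10 UMIs and 0.5%) and a stricter muscle gate (under 0.1%). The fits were run on simulated counts with planted changes, a fixed dispersion and no foreign RNA. That run checks the code and does not give the error rate in these data. Differences against single libraries are log2 CPM with a prior count. So are the log2 fold changes given for each class where fibroblasts are set beside smooth muscle. Named genes are the called genes of largest change with under 50% of UMIs in 10 barcodes and at least the level of other kept barcodes, called list members and up to 4 abundant members of each list. The members, the gene lists and this rule were chosen with earlier results of these data known. Genes sharing reads with close copies (Ifitm, Svs, Gbp families) are uncertain. Coordinates are from GENCODE vM21 and promoters from RefSeq, both GRCm38.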

Additional observations from a re-analysis of the deposited data

Results flagged for a closer look

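The genotype difference was tested for a difference between fibroblasts and smooth muscle, and 88 genes passed. The 6 with the lowest p in each direction, among genes at least as abundant as in the other kept barcodes, are given as the log2 fold change in fibroblasts minus that in smooth muscle (edgeR's quasi-likelihood test). Higher in fibroblasts were Cxcl9 (8.04, adjusted p = 1.81e-13), Gbp2 (2.77), Cxcl10 (2.40), Coch (2.27, adjusted p = 1.43e-07), Fgl2 (2.08, adjusted p = 8.63e-08) and Rasd1 (1.81, adjusted p = 4.64e-06). Coch, which encodes the secreted protein cochlin, changed by -0.35 in fibroblasts and -2.59 in smooth muscle, where the larger change lies. Lower in fibroblasts were Lgals7 (-4.36, adjusted p = 1.31e-05), Osr1 (-4.24, adjusted p = 9.48e-06), Gal (-4.20, adjusted p = 1.08e-09), Gsta3 (-2.49, adjusted p = 4.01e-05), Abi3bp (-2.12, adjusted p = 1.31e-05) and Igfbp5 (-1.83). Abi3bp, a matrix protein, changed by 0.04 in fibroblasts and 2.09 in smooth muscle. In fibroblasts of the heterozygous libraries, 10 barcodes held 89.2% of the UMIs of Gal (galanin), 91.5% of those of Lgals7 and 71.9% of those of Osr1. In knockout fibroblasts 10 barcodes held 98.7% of the UMIs of Cxcl9, 68.6% of those of Gbp2, 53.4% of those of Cxcl10 and 35.3% of those of Fgl2. The first 3 therefore rest mostly on a few barcodes of 1 library.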

How the results depend on the processing

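No paired analysis was possible because the replicate numbers only name the libraries. Counts of called genes have no leave-one-out values, since no residual degree of freedom is left. Over the whole gate, the 709 genes called between genotypes became 100 without barcodes carrying markers of another class and 164 with a stricter matrix gene gate. They became 79 with DESeq2 and 21 with foreign RNA subtracted. The 9 genes whose genotype difference differed from smooth muscle became 88 without marked barcodes, 90 with DESeq2 size factors, 236 without a filter on low counts, 133 without Svs genes, 392 with at least 1000 genes, 291 with at most 10% mitochondrial UMIs, 120 at the depth limit and 3 with a stricter muscle gate. The 377 genes higher than in smooth muscle became 223 with the stricter matrix gate and 436 to 470 with a library left out. The share ratio of 1.22 became 2.74 with the stricter matrix gate and 3.24 without marked barcodes (1.08 to 1.41 with a heterozygous library left out). Over the whole gate, marked barcodes included, the share of fibroblasts leaning to the C3-type list, knockout minus mean of heterozygotes, was 6.09 percentage points and became 4.45 with at least 1000 genes, 8.94 with the stricter matrix gate, 2.90 without marked barcodes and 5.50 at the depth limit (5.77 to 6.41 with a library left out).

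For the fibroblasts without other markers, the 100 calls became 63 at the depth limit and 19 with DESeq2, and lay between 71 and 117 in the other settings (limma-voom 117). The 88 calls against smooth muscle lay between 66 and 105. The 272 genes higher than in smooth muscle became 344 to 387 with a library left out. The share ratio of 3.24 became 4.34 at the depth limit (2.95 to 3.59 with a library left out), and the C3-type difference of 2.90 ran from -0.08 to 5.88 with a library left out. Without heterozygous 2, Cebpb changed sign to 0.19 (without heterozygous 1 it was -2.73; over the whole gate 0.36 and -2.59) and Igfbp2 to 0.21 (-2.10). Ccl5 changed sign to 2.35 without heterozygous 1 (-3.32 without heterozygous 2) and to 1.40 with limma-voom. The cause of these shifts was not tested. Of 408 values for 38 named genes, 307 kept their call, 100 lost it and 1 changed sign. Counting noise in the 68 fibroblasts of heterozygous 1 limits all gene comparisons.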

Other observations

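The higher calls of the fibroblasts held 2 imprinted genes picked after their values were seen, with no count of imprinted genes tested. Rian, a long RNA of the Dlk1-Dio3 region, had 97, 1 and 12 UMIs (log2 fold change 1.76 ± 0.50, adjusted p = 0.0353 in edgeR's test), and Zdbf2, an imprinted zinc finger gene, had 100, 7 and 5 (1.85 ± 0.50, adjusted p = 0.0209). Meg3, the neighbour of Rian, was at 303, 152 and 142 CPM (1.05 ± 0.37, adjusted p = 0.182) and did not pass. Rian and Zdbf2 lost the call in limma-voom and among barcodes of at least 2466 UMIs. Meg3 was picked in the same way.

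Apoe in the 903 marked barcodes of the gate was at 3122, 6946 and 6093 CPM against 1308, 2496 and 3480.1 in the fibroblasts and 431, 465 and 402 in the other kept barcodes.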
